A study of Mus musculus with 12 samples.

Results

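Co-stimulatory ligands are the surface proteins with which an antigen-presenting cell gives a T cell its second signal. The 10 genes described here, of 24499 gene symbols in the deposited counts, are defined by name for that role. The definition uses no counts, but the genes were chosen with earlier results of these data known. They are the B7 family ligands Cd80, Cd86 and Icosl, the tumour necrosis factor (TNF) family ligands Tnfsf4, Tnfsf9 and Cd70, the TNF receptor family member Cd40, and the adhesion proteins Icam1, Cd48 and Cd24a. All 10 symbols are in the table.

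A T cell that meets its antigen also reads the surface of the presenting cell. CD28 on the T cell binds CD80 and CD86, and CTLA-4 competes for the same ligands and restrains the response. TNF family ligands sustain T cells that are already activated, and CD40 works in the other direction, receiving CD40 ligand from the T cell and driving the dendritic cell to mature, while adhesion proteins hold the cells together. In lymph nodes these genes are known from dendritic cells that have matured, but B cells and macrophages carry several of them too.

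The libraries came from APOE-KO mice, which lack apolipoprotein E, and from wildtype C57BL6 mice, 6 of each. Both genotypes carried E0771-cOC tumours, a mouse mammary carcinoma model, and their tumour-draining lymph nodes were taken on day 9 after injection, digested, and enriched with beads against CD11c, the integrin encoded by Itgax. The sources used here give neither the age and sex of the mice nor how the knockout allele was made. They also do not say whether each library is a separate animal, and the p-values rest only on library-to-library spread, which may be technical.

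Libraries held from 3175135 to 4497466 reads in APOE-KO and from 2381477 to 4898360 in wildtype. Apoe stood at 5.81 ± 2.95 CPM (read count scaled to library size) in APOE-KO and at 481 ± 45.7 CPM in wildtype (SD, n = 6 each), which fits the labels. Itgax, the gene of the bead target, was present throughout, at 298 ± 36.9 CPM in APOE-KO and 278 ± 54.0 CPM in wildtype, and all 12 genes of a conventional dendritic cell list passed the low-count filter. Beads enrich and do not purify: B cell markers, led by Cr2, summed to between 659 and 840.3 CPM in APOE-KO libraries and to between 823 and 1024 CPM in wildtype libraries. Of the 12 conventional dendritic cell genes 1, Sirpa, rose and 1, Clec10a, fell. Of 12 tested macrophage markers 2 rose and 4 fell, and of 11 plasmacytoid dendritic cell markers 3 fell. The 45S ribosomal RNA gene Rn45s took 11.3% to 21.6% of reads in APOE-KO libraries and 2.71% to 32.2% in wildtype libraries, with wildtype library 3 lowest and wildtype library 1 highest. In such mixed samples, fewer cells of a type and less RNA per cell cannot be told apart.

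RefSeq promoter windows (build GRCm38.p6, from 250 bases before to 50 bases after the start of a gene) were at hand for 4 of the 10 genes, Cd80, Icosl, Icam1 and Cd48. They were searched because CD40 and the TNF receptors signal through NF-kappaB, whose binding sequence is the kappaB motif. On both strands, the 10-base kappaB consensus was found in 1 of the 4 windows, that of Icosl, beginning 111 bases before the RefSeq start, and in 8.46% of all 32851 windows. Icam1 had no consensus match, but held the 9 bases GGAAATTCC, beginning 153 bases before its start, a variant known as the NF-kappaB site of the human ICAM1 promoter. This string was searched on both strands after the window had been read, and 0.317% of all windows held it. Both windows are shown because Icam1 had the smallest p of the 10 genes and Icosl is the one with a consensus match. Capitals mark the matched bases, which are letters in a window and no evidence of binding. The Icam1 window lies at chr9:21015690-21015989 and the Icosl window at chr10:78069118-78069417, both on the plus strand.
Icam1: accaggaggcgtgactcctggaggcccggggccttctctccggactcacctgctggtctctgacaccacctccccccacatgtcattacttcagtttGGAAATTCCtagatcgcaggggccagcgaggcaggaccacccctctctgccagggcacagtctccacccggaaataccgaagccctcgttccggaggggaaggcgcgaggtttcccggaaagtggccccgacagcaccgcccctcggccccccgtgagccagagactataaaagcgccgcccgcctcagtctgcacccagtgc
Icosl: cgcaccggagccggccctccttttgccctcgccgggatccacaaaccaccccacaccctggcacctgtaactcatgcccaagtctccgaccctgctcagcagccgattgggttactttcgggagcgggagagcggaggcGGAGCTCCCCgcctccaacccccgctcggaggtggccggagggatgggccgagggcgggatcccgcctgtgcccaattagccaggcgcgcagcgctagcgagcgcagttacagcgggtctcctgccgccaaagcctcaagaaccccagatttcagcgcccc

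No co-stimulatory gene passed the test between genotypes. Levels were compared as CPM on library sizes scaled by edgeR's TMM factors, and since reads come from the 3' end of a transcript, they need no division by gene length. Of the 10 genes 9 had enough reads to be tested. With edgeR's quasi-likelihood test and Benjamini-Hochberg adjustment at a threshold of 0.05, 0 of these 9 were called, against 1.49% of the 10714 genes tested (116 higher and 44 lower in APOE-KO). DESeq2 and limma-voom likewise called 0 of the 9. At an unadjusted p of 0.05, 2 of the 9 passed, Cd40 and Icam1, against 12.1% of all tested genes. A log2 fold change above 0, that is a higher fitted level in APOE-KO, was found for 6 of the 9 genes and for 47.2% of all tested genes. Its median was 0.17 over these 9 genes and -0.02 over all tested genes. In none of the 9 did the libraries of the genotypes separate fully, while 1.77% of all tested genes had groups that did not overlap.

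**Figure D1:**
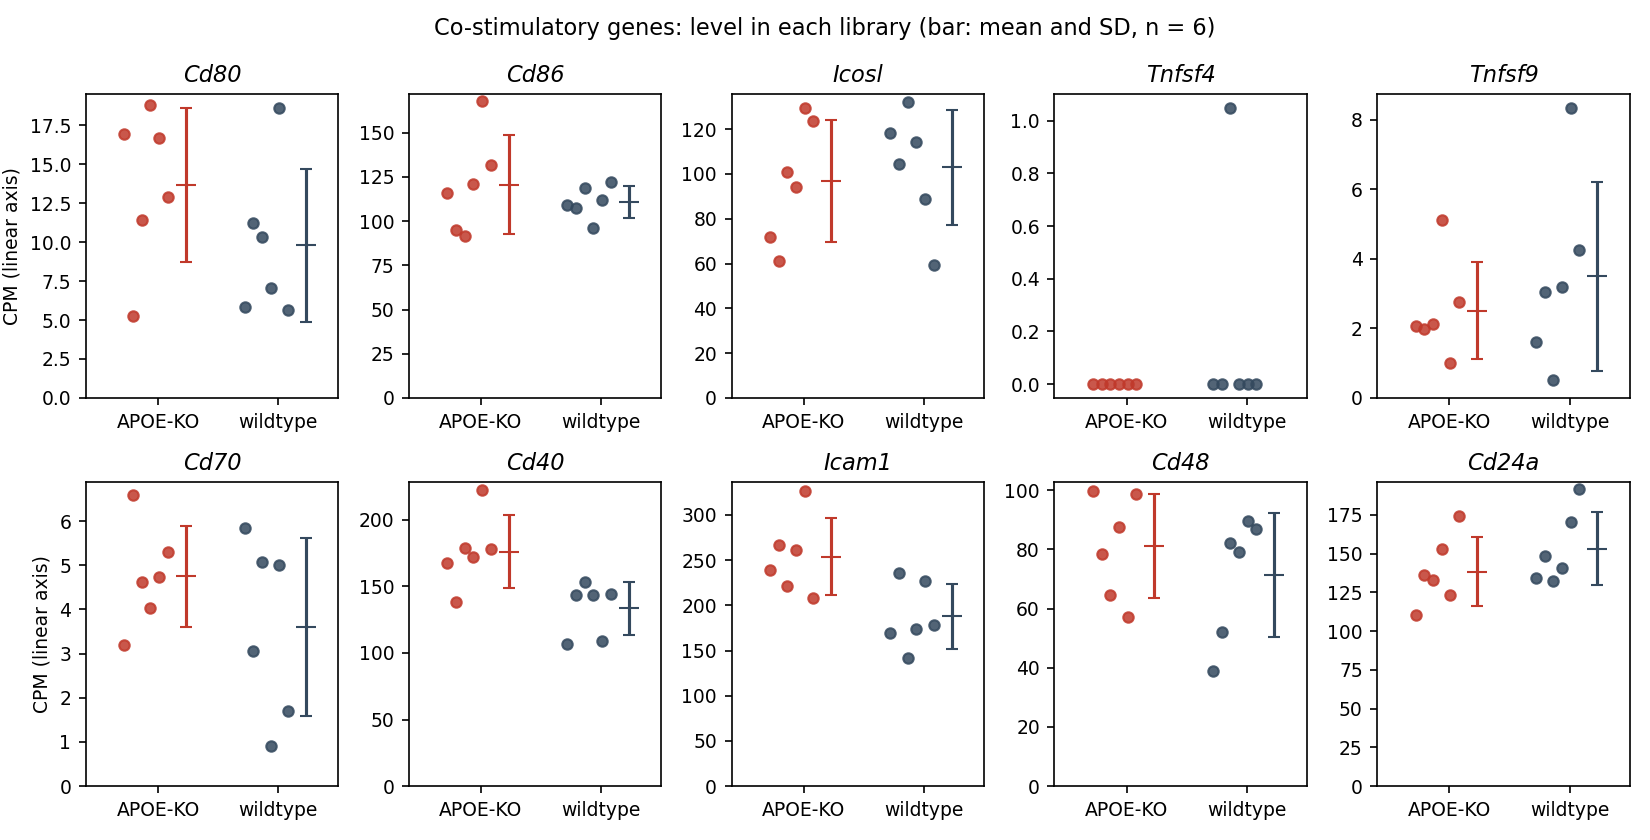
Level of each co-stimulatory gene in each library, in CPM on a linear axis that differs between panels. Points are libraries, and bars give the mean and SD (n = 6 per genotype, not drawn for Tnfsf4). Cd40 and Icam1 sit higher in most APOE-KO libraries, the other panels overlap widely, and Tnfsf4 has reads in wildtype library 3 alone.

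**Figure D2:**
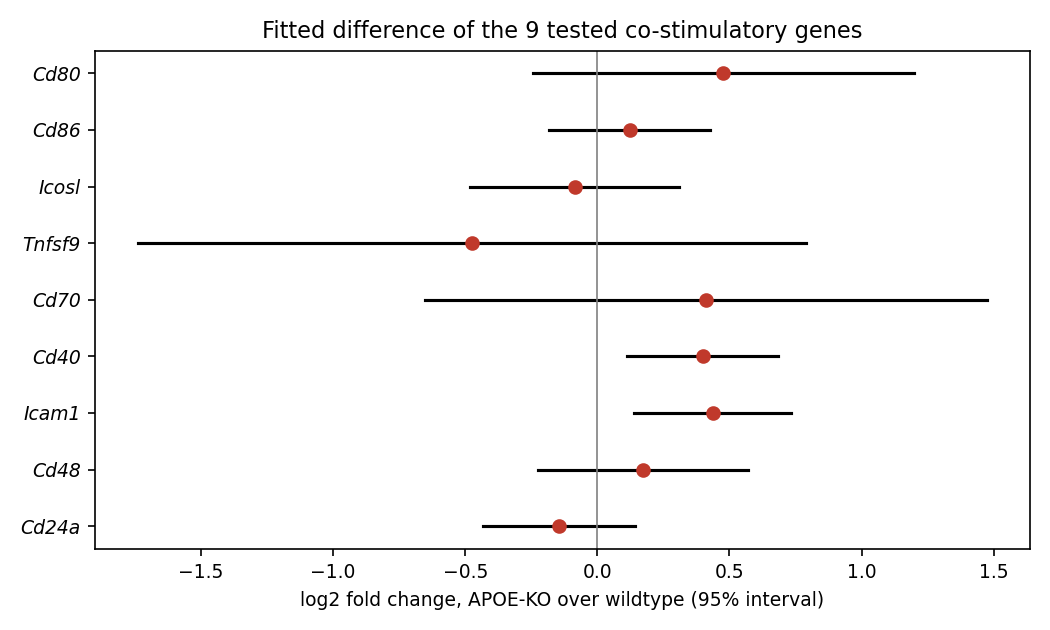
Log2 fold change, APOE-KO over wildtype, of the 9 tested co-stimulatory genes, with 95% intervals that are not adjusted for the number of genes. Intervals for Cd40 (0.11 to 0.68) and Icam1 (0.14 to 0.73) lie above 0, and those of the low-count genes Tnfsf9 and Cd70 are the widest.

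The levels spanned a wide range. Averaged over the 12 libraries, Icam1 was highest at 221 CPM, followed by Cd40 at 155 CPM, Cd24a at 146 CPM, Cd86 at 116 CPM, Icosl at 99.9 CPM and Cd48 at 76.2 CPM. After a gap came Cd80 at 11.7 CPM, Cd70 at 4.17 CPM, Tnfsf9 at 3.00 CPM and Tnfsf4 at 0.0875 CPM. The step from Cd48 to Cd80 was the one step between neighbours that held in all 12 libraries. Icam1 exceeded Cd40 in 11 libraries, and it was the highest of the 10 genes in 10 libraries. Other neighbours changed places more often, Cd86 exceeding Icosl in 8 of 12 and Cd70 exceeding Tnfsf9 in 7 of 12, so those orders are not fixed beyond the spread. Cd40 exceeded Cd24a in 6 of 6 APOE-KO libraries and in 2 of 6 wildtype libraries. Summed over the 10 genes, the level was 888 ± 99.0 CPM in APOE-KO and 777 ± 48.7 CPM in wildtype (SD, n = 6 each).

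The B7 ligands, which carry the classical second signal, showed no difference that passed the test. Cd86 (chromosome 16, 36603869 to 36666081, minus strand, GRCm38) encodes the B7 ligand that dendritic cells already carry before full maturation. Its lowest, median and highest libraries were at 91.8, 119 and 168 CPM in APOE-KO and at 96.3, 111 and 122 CPM in wildtype. The APOE-KO libraries were thus the more scattered, with a coefficient of variation of 23.1% against 8.21% in wildtype, and reached both above and below the wildtype range. The log2 fold change was 0.12 ± 0.15 (SE, 95% interval -0.18 to 0.43, adjusted p = 0.819), so a change of more than 1.34-fold upward or to less than 0.882 of wildtype lies outside the interval.

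Cd80 (chromosome 16, 38455561 to 38496335, plus strand), the B7 ligand that appears more with activation, was far scarcer, with 320 reads over the APOE-KO libraries and 221 over the wildtype libraries. Its libraries ran from 5.27 over a median of 14.8 to 18.8 CPM in APOE-KO, and from 5.67 over a median of 8.69 to 18.6 CPM in wildtype. Of 6 APOE-KO libraries 5 lay above the wildtype median, but wildtype library 5 came within 1 CPM of the highest of them and APOE-KO library 2 was the lowest of all. The log2 fold change was 0.48 ± 0.35 (SE, interval -0.24 to 1.20, adjusted p = 0.643), an interval that reaches 2.29-fold. Over the alternative fits it ran from -0.40, with the mature dendritic cell mean as a covariate, to 1.08, with the epithelial mean, so neither its sign nor its size is fixed. Marker levels of both lists were unequal between genotypes, so neither fit can fully separate them from genotype. For each Cd80 read there were 6.44 to 18.1 Cd86 reads in APOE-KO libraries (median 9.08) and 6.01 to 21.6 in wildtype libraries (median 12.6). These ranges overlap almost fully.

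Icosl (chromosome 10, 78069302 to 78083913, plus strand), the ligand of the T cell receptor ICOS and known also from B cells, ran from 61.3 over a median of 97.4 to 129.6 CPM in APOE-KO. In wildtype it ran from 59.5 over a median of 109 to 132 CPM. Neither genotype reached beyond the other by more than a few CPM at either end. Its log2 fold change was -0.09 ± 0.19 (SE, interval -0.48 to 0.31, adjusted p = 0.918). The sign is not fixed, since the log2 fold change was 0.016 without APOE-KO library 2 and 0.017 without wildtype library 3.

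The TNF family ligands were at the edge of detection. In 1 library 3 reads, taken here as the detection floor, stand for between 0.525 and 1.59 CPM. Tnfsf4 (chromosome 1, 161395409 to 161418410, plus strand), which encodes OX40 ligand, had 6 reads in wildtype library 3, or 1.05 CPM, and 0 reads in each of the other 11 libraries. It did not pass the filter on low counts. When edgeR was run with no filter, its p was 0.0488 before and 0.366 after adjustment, and no fold is given because its reads lie in a single library.

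Tnfsf9 (chromosome 17, 57105325 to 57107757, plus strand), which encodes 4-1BB ligand, had 57 reads over APOE-KO and 74 over wildtype. Its libraries ran from 0.995 over a median of 2.10 to 5.11 CPM in APOE-KO and from 0.525 over a median of 3.12 to 8.35 CPM in wildtype, where library 5 was highest and library 3, at the floor, lowest. The log2 fold change was -0.48 ± 0.61 (SE, interval -1.74 to 0.79, adjusted p = 0.831), and over the alternative fits the log2 fold change ran from -1.57 to 0.36. The gene overlaps Gm11110 on the other strand. Cd70 (chromosome 17, 57145997 to 57149777, minus strand), the ligand of CD27, had 106 reads over APOE-KO and 77 over wildtype. It ran from 3.21 over a median of 4.68 to 6.59 CPM in APOE-KO and from 0.910 over a median of 4.03 to 5.84 CPM in wildtype, with wildtype libraries 2, 4 and 6 below every APOE-KO library. The log2 fold change was 0.41 ± 0.52 (SE, interval -0.65 to 1.48, adjusted p = 0.825). For both genes the interval takes in changes of 1.5-fold in either direction, which these libraries therefore do not exclude.

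Cd40 and Icam1 had the smallest p-values of the 9 tested genes, with fitted levels that were higher in APOE-KO but short of the threshold. Cd40 (chromosome 2, 165055627 to 165072948, plus strand) encodes the receptor through which helper T cells license dendritic cells. Its libraries ran from 138 over a median of 175 to 222 CPM in APOE-KO and from 107 over a median of 143 to 153 CPM in wildtype. Of the 6 APOE-KO libraries 5 lay above every wildtype library, and APOE-KO library 2 alone lay among them. The mean was 176 ± 27.1 CPM in APOE-KO and 133 ± 19.99 CPM in wildtype (SD, n = 6 each). This is a 1.32-fold higher level, with a log2 fold change of 0.40 ± 0.14 (SE, interval 0.11 to 0.68, adjusted p = 0.191 in edgeR's quasi-likelihood test).

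Icam1 (chromosome 9, 21015985 to 21028817, plus strand) encodes the ligand of the integrin LFA-1, which seals the contact between T cell and dendritic cell. It ran from 208 over a median of 249.8 to 327 CPM in APOE-KO and from 142 over a median of 176 to 236 CPM in wildtype. All 6 APOE-KO libraries lay above the wildtype median and 4 above every wildtype library, while wildtype libraries 2 and 5 reached into the APOE-KO range. The mean was 254 ± 42.3 CPM in APOE-KO and 188 ± 36.1 CPM in wildtype (SD, n = 6 each). Its level was 1.35-fold higher, with a log2 fold change of 0.44 ± 0.14 (SE, interval 0.14 to 0.73, adjusted p = 0.163). Icam1 overlaps Gm47079 on the other strand, and without a stated strand setting their reads cannot be told apart.

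Both genes kept a positive log2 fold change in all 27 alternative fits, from 0.31 to 0.46 for Cd40 and from 0.27 to 0.58 for Icam1. Cd40 passed in 1 of the 27, with the share of Rn45s reads as a covariate (log2 fold change 0.46, adjusted p = 0.0445), and Icam1 in none. Over those fits the adjusted p ran from 0.0445 to 0.999 for Cd40 and from 0.0881 to 0.971 for Icam1. APOE-KO library 5 was the highest of the 12 for both, and without it the log2 fold changes were 0.32 and 0.35. With the mean of the mature dendritic cell markers as a covariate, the log2 fold change of Icam1 was 0.27 ± 0.30 and that of Cd40 was 0.35 ± 0.31 (SE). That mean itself differed between genotypes (8 of its 15 tested genes rose). The fit therefore cannot separate it from genotype, and the SE grew.

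**Figure D3:**
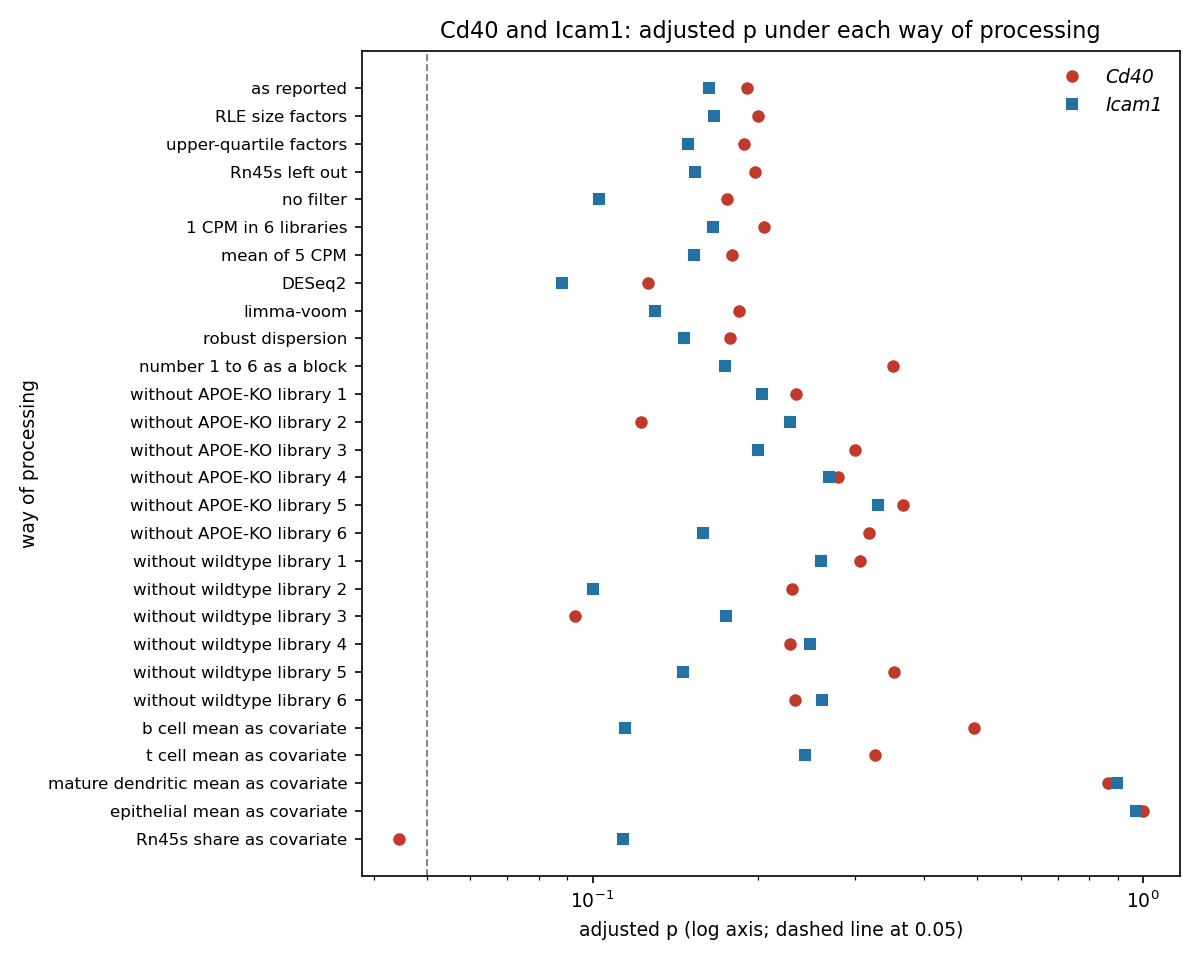
Adjusted p of Cd40 (circles) and Icam1 (squares) for the difference between genotypes, on a log axis, under each way of processing; the dashed line marks 0.05. Cd40 with the Rn45s share as a covariate is the one point left of the line, at 0.0445.

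The other adhesion genes overlapped between genotypes. Cd48 (chromosome 1, 171682009 to 171705258, plus strand), a lipid-anchored protein of most blood cells that binds CD2 and 2B4 in mice, ran from 57.2 over a median of 83.0 to 99.6 CPM in APOE-KO. In wildtype it ran from 38.8 over a median of 80.7 to 89.6 CPM, with libraries 1 and 2 below every APOE-KO library. Medians were close, and the log2 fold change was 0.17 ± 0.19 (SE, interval -0.22 to 0.57, adjusted p = 0.800). Cd48 overlaps Gm37010 on the same strand.

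Cd24a (chromosome 10, 43578284 to 43584265, plus strand), the heat-stable antigen, is a lipid-anchored glycoprotein of dendritic cells, B cells and epithelium. It was the well-covered gene with the lowest log2 fold change, -0.15 ± 0.14 (SE, interval -0.43 to 0.14, adjusted p = 0.755). It ran from 111 over a median of 134 to 174 CPM in APOE-KO and from 132 over a median of 145 to 192 CPM in wildtype, so that 2 APOE-KO libraries lay below every wildtype library. Markers of other cells that carry it were tested too. Of 10 tested B cell markers 1, Fcer2a, fell and none rose, with the sums given above, but limma-voom called 0 of them. Further, of 5 tested epithelial markers 1, Cdh1, fell and none rose. Of the 12 listed, limma-voom called 3 lower (Cdh1, Krt18 and Krt8) and DESeq2 2 (Cdh1 and Wfdc18). The 12 epithelial markers listed summed to between 8.69 and 93.2 CPM in APOE-KO libraries and to between 80.5 and 141 CPM in wildtype libraries. Of these, 2 untested genes, Csn3 and Elf3, had 0 reads in APOE-KO and only 28 each over wildtype. The log2 fold change of Cd24a was -0.10 with the B cell mean as a covariate and -0.24 with the epithelial mean. Both marker levels leaned lower in APOE-KO, so these fits cannot fully separate them from genotype.

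The binding partners of these ligands, read from the T cells and other cells in the same libraries, were tested as well. Of 11 genes, all tested, 1 rose and none fell. Tnfrsf4, which encodes OX40, the receptor of the Tnfsf4 product, ran from 81.5 over a median of 103 to 122 CPM in APOE-KO and from 42.8 over a median of 57.6 to 70.3 CPM in wildtype. Every APOE-KO library lay above every wildtype library, and the level was 1.82-fold higher (log2 fold change 0.87 ± 0.16 SE, adjusted p = 0.00303). Thus the receptor gene rose where reads of its ligand were at or near 0 in both genotypes. Of 9 tested T cell markers 0 passed in edgeR's quasi-likelihood test, 0 at an unadjusted p of 0.05 and 0 in DESeq2 and limma-voom. Their sums were 391 to 524 CPM in APOE-KO and 387 to 478 CPM in wildtype. The list held 12 genes, but Trac, Trbc1 and Trbc2 were not matched in the counts, so these T cell receptor genes were not read. Tnfrsf4 lost its call with the B cell, mature dendritic cell or epithelial marker mean as a covariate (adjusted p = 0.0603, 0.793 and 0.396). Its log2 fold change in these fits was 0.71 ± 0.17, 0.54 ± 0.34 and 0.75 ± 0.24 (SE). The mature dendritic cell mean itself differed between genotypes, so the fit with it cannot separate it from genotype. The other 2 marker levels leaned with genotype too. Median sums were 794 CPM in APOE-KO and 915 CPM in wildtype for B cell markers, and 31.7 and 103 CPM for epithelial markers. Those fits cannot fully separate marker level from genotype either.

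Partners of Cd40 and Icam1 gave no call. Cd40lg, CD40 ligand, had 75 reads over APOE-KO and 110 over wildtype (log2 fold change -0.60 ± 0.66 SE, adjusted p = 0.797). Itgal and Itgb2, the chains of LFA-1, had log2 fold changes of -0.19 ± 0.13 and -0.08 ± 0.14 (SE). Cd28, the receptor of CD80 and CD86, stood at 47.6 ± 11.3 CPM in APOE-KO and 44.8 ± 12.9 CPM in wildtype (SD, n = 6 each), and its competitor Ctla4 at 25.2 ± 5.24 CPM in APOE-KO and 30.9 ± 10.5 CPM in wildtype. Cd27, the receptor of CD70, had 24.6 ± 6.26 CPM in APOE-KO and 14.7 ± 3.53 CPM in wildtype (log2 fold change 0.73 ± 0.24 SE, adjusted p = 0.165). Cd244a, which encodes 2B4, a partner of CD48, had 17.4 ± 6.50 CPM in APOE-KO and 26.3 ± 7.42 CPM in wildtype (log2 fold change -0.61 ± 0.26 SE, adjusted p = 0.343). Partners that missed the threshold are named here for their binding, after their values were seen.

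**Figure D4:**
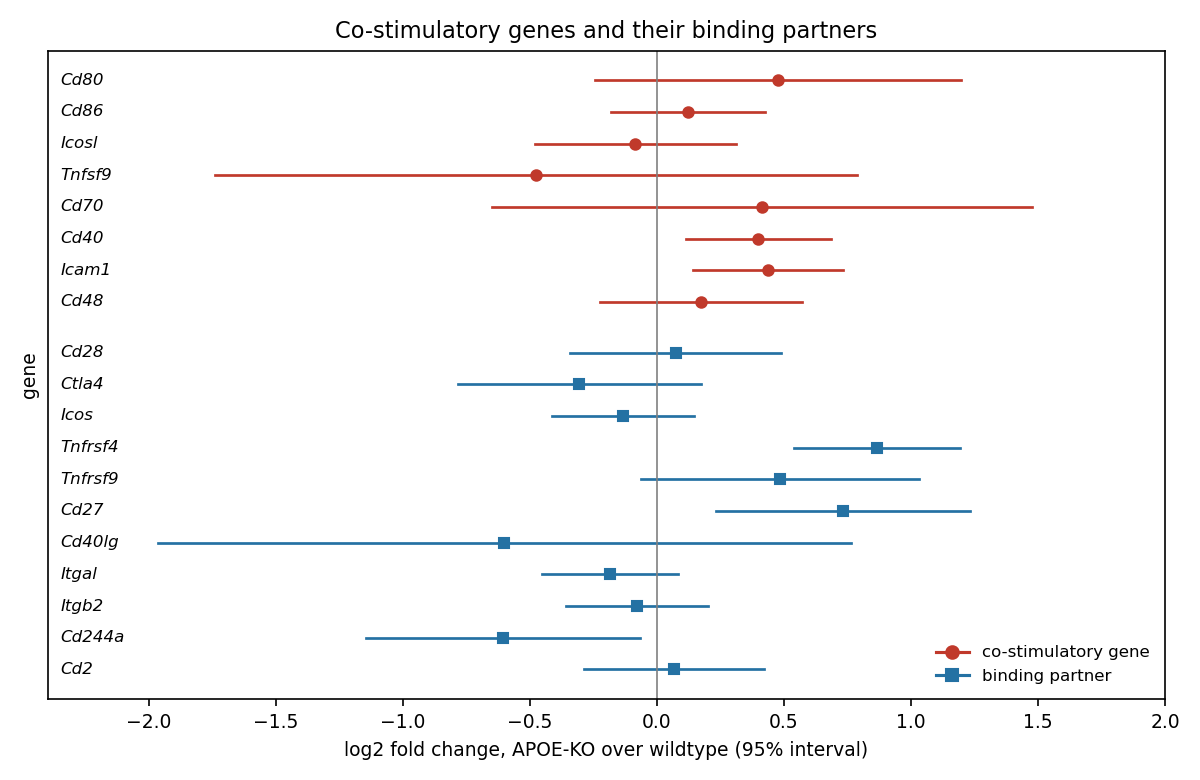
Log2 fold change, APOE-KO over wildtype, with 95% intervals, for 8 of the tested co-stimulatory genes (circles) and 11 binding partners (squares). Tnfrsf4, at 0.87, is the one gene shown that passed the test, and its ligand Tnfsf4 had too few reads to be drawn.

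Genes that signal below CD40 gave no call. Of 19 tested, among them the TRAF adaptors and the NF-kappaB subunits, 0 passed in edgeR's quasi-likelihood test, and 0 in DESeq2 and limma-voom. At an unadjusted p of 0.05, 3 passed, beside 12.1% of all tested genes. A positive log2 fold change was found for 16, with a median of 0.20, beside 47.2% positive and a median of -0.02 over all tested genes. Relb, an NF-kappaB subunit of mature dendritic cells, stood at 247 ± 16.0 CPM in APOE-KO and 188 ± 36.3 CPM in wildtype (SD, n = 6 each; adjusted p = 0.176). Traf6, an adaptor of CD40, stood at 47.2 ± 8.34 CPM in APOE-KO and 34.0 ± 5.76 CPM in wildtype (adjusted p = 0.230). It was the one gene of the 19 whose genotypes did not overlap, beside 1.77% of all tested genes. Relb and Traf6 were picked out after their values were seen. Their positions relative to Apoe were not examined, and whether the altered locus bears on their levels was not tested.

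Ligands with a neighbouring role were read beside them. Of 9 tested further co-stimulatory and adhesion ligands 0 passed in edgeR's quasi-likelihood test, and 0 in DESeq2 and limma-voom. An unadjusted p under 0.05 was found for 2, beside 12.1% of all tested genes. Their 10 listed genes summed to between 1066 and 1202 CPM in APOE-KO libraries and to between 840.4 and 1034 CPM in wildtype libraries. The highest of these was Cd83, a marker of mature dendritic cells, at 691 ± 54.0 CPM in APOE-KO and 567 ± 40.5 CPM in wildtype (SD, n = 6 each; log2 fold change 0.29 ± 0.10 SE, adjusted p = 0.224), also picked out after its values were seen. Among 8 tested genes of a list on inhibitory signals, mostly ligands but with the receptor gene Btla, 2 rose and none fell in edgeR's quasi-likelihood test. The same 2 rose in DESeq2, and 1, Cd274, in limma-voom. At an unadjusted p of 0.05, 4 passed, beside 12.1% of all tested genes, and 5 of the 8 had a positive log2 fold change. Among the 4 was Nectin2, which was lower in APOE-KO (log2 fold change -1.02 ± 0.44 SE, adjusted p = 0.335 in edgeR's quasi-likelihood test). Cd274, which encodes PD-L1, ran from 42.4 over a median of 66.3 to 95.4 CPM in APOE-KO and from 24.0 over a median of 35.5 to 50.2 CPM in wildtype, 1.84-fold higher (log2 fold change 0.88 ± 0.20 SE, adjusted p = 0.0213). Pvr, CD155, which binds the inhibitory receptor TIGIT as well as the activating DNAM-1, ran from 26.7 over a median of 64.3 to 85.3 CPM in APOE-KO and from 23.9 over a median of 31.5 to 48.3 CPM in wildtype, 1.87-fold higher (log2 fold change 0.91 ± 0.23 SE, adjusted p = 0.0391). For both, 5 of 6 APOE-KO libraries lay above every wildtype library. The positions of these list genes relative to Apoe were not examined. Whether the altered Apoe locus itself bears on the level of Pvr was not tested. When single libraries were left out, Cd274 lost its call in 4 of 12 fits (APOE-KO 4 and 6, wildtype 5 and 6), with an adjusted p as high as 0.0788 and a log2 fold change of 0.75 to 0.88. Pvr lost it in 8 of 12 (APOE-KO 1, 3, 4, 5 and 6, wildtype 4, 5 and 6), with an adjusted p as high as 0.125 and a log2 fold change of 0.80 to 0.93. Over all 27 alternative fits Pvr lost its call in 14, among them limma-voom (adjusted p = 0.0607) and the fit with the replicate number as a block (0.160). With the mature dendritic cell mean as a covariate the log2 fold changes were 0.23 for Cd274 and 0.16 for Pvr, neither a call. That mean itself differed between genotypes, so these fits cannot tell marker level and genotype apart. Whether these genes differ from the co-stimulatory ones in their response to genotype was not tested.

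The markers of mature dendritic cells, in which co-stimulatory genes are known to be high, rose in 8 of 15 tested genes, and none fell. Their summed level ran from 5942 to 9294 CPM in APOE-KO libraries and from 4210 to 6419 CPM in wildtype libraries. Il4i1, 1 of the 16 listed, had 3 reads over APOE-KO and 0 over wildtype and was not tested. Ccr7, the chemokine receptor of migrating dendritic cells, stood at 1082 ± 147 CPM in APOE-KO and 699 ± 94.1 CPM in wildtype (SD, n = 6 each; log2 fold change 0.63 ± 0.12 SE, adjusted p = 0.00444). With the B cell mean as a covariate Ccr7 had a log2 fold change of 0.51 and lost its call (adjusted p = 0.0715). B cell marker levels leaned lower in APOE-KO, so this fit cannot fully separate them from genotype. Anxa3, Tmem123 and Marcksl1 had log2 fold changes of 0.74, 0.76 and 0.69. All 15 tested markers had a positive log2 fold change, with a median of 0.70. Beside these, the log2 fold changes of the 6 well-covered co-stimulatory genes ran from -0.15 for Cd24a to 0.44 for Icam1. The list was drawn up with earlier results of these libraries known.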

How the data were processed

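Libraries were 3' tag libraries (Lexogen 3' FWD), per the labels' protocols. The deposited values are raw read counts per gene symbol, whole numbers that the authors did not normalise. Per the submitters' processing notes, the authors worked on build mm10 with the aligner STAR 2.7.8a and the counter featureCounts 1.5.1, and also list DESeq2 1.4 and R 4.1.0. The sources used here give no annotation, strand setting or rule for reads with several matches.

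Counts were fitted in R 4.3.3 with edgeR 4.0.16 (filterByExpr, TMM factors, glmQLFit and glmQLFTest on genotype, all 12 libraries). Of 24499 symbols 10714 were tested, with Benjamini-Hochberg adjustment over all of them and a threshold of 0.05. The SE was taken from the fold change and its F statistic, and intervals are 95% intervals for single genes. The fit was also run on simulated data, where it missed most changes of 1.5-fold. Detection floors cover counting error only.

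Members and gene lists were chosen with earlier results of these data known. Named genes are the 10 members, Apoe, Itgax and up to 4 passing genes with the smallest p of each list on co-signalling and maturation. Of the list genes 3, all T cell markers, were not matched in the table and were not used. Positions come from GENCODE vM21 (GRCm38, the assembly of mm10), and promoter windows from RefSeq. Alternatives were other size factors, filters, DESeq2 1.42.0, limma-voom (limma 3.58.1), robust dispersion, a block, covariates, and omission of single libraries. No 2 libraries of a genotype agreed within sampling noise.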

Additional observations from a re-analysis of the deposited data

Results flagged for a closer look

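Of 20 sets of 6 libraries examined, 1 held a library set far apart from the others. Tnfsf4 was at 1.05 CPM in wildtype library 3, from 6 reads, and at 0 in the other 5 wildtype libraries. The rule sets the gap to the next library against the range of the 6. Reads in 1 library and 0 in the others always meet it, so no chance rate applies to this flag. Wildtype library 3 was also the deepest library, with 4898360 reads, and had the lowest share of Rn45s reads, 2.71%. Whether either bears on Tnfsf4 was not tested.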

How the results depend on the processing

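Across 27 alternative fits the tested co-stimulatory genes gave 241 values, of which 235 kept both their direction and their side of the threshold. Cd40 passed with the Rn45s share as a covariate (log2 fold change 0.46), the one fit in which the count of passing members was 1 and not 0. The direction turned in 5 values, all far from the threshold. These were Icosl without single libraries (range -0.20 to 0.017, positive without APOE-KO library 2 or wildtype library 3), Cd80 with the mature dendritic cell mean as a covariate (-0.40), and Tnfsf9 with the B cell mean (0.36) or epithelial mean (0.061) as a covariate. Of the list genes, Tmem123 turned to -0.28 with the mature dendritic cell mean, a list that holds it. The number of genes past the threshold, 160 (116 higher, 44 lower), was 272 with DESeq2 (182 and 90) and 335 with the Rn45s share as a covariate (199 and 136). It was 71 with the B cell mean (45 and 26), 37 with the epithelial mean (26 and 11) and 4 with the mature dendritic cell mean (1 and 3). The mature dendritic cell mean itself differed between genotypes, so that fit cannot separate it from genotype. B cell and epithelial marker levels leaned lower in APOE-KO, so the fits with them share this limit in part. With no filter on low counts the lower genes numbered 68. The replicate numbers do not pair libraries by any label, and same-numbered libraries did not deviate together (correlations from -0.08 to 0.02). With the number as a replicate block 100 genes passed, 70 of them higher, and no co-stimulatory gene did. Without single libraries the genes past the threshold ran from 99 to 230, the higher ones from 72 to 166 and the lower ones from 27 to 64. APOE-KO library 3 gave the lowest total and wildtype library 3 the highest. The lower genes numbered 27 without APOE-KO library 3, 29 without APOE-KO library 6 and 27 without wildtype library 5. A filter at a mean of 5 CPM left out Cd70 and Tnfsf9. Tnfsf4 had too few reads to be tested, and Tnfsf9 and Cd70 had both few reads and the widest spread between libraries (biological coefficients of variation of 60.9% and 50.3%). The causes of these shifts were not tested.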

Other observations

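Within genotypes, the 9 tested co-stimulatory genes were set against the mean of the mature dendritic cell, B cell and epithelial markers, as deviations from the genotype mean over 12 libraries. These 27 relations were computed after the data had been seen, and none passed adjustment. The closest was Icosl with B cell markers, which ran in opposite directions (Pearson r = -0.65, permutation p = 0.0403, adjusted 0.913; Spearman rho = -0.80, permutation p = 0.00514, adjusted 0.139; two-sided). Without the 2 libraries farthest from the median of the marker mean, r was -0.84. Cd40 and Icam1 had r = 0.10 and 0.20 with the mature dendritic cell markers (permutation p = 0.754 and 0.557, adjusted 0.953 and 0.940). The values of a library share its scaling and its composition.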
